A study of Mus musculus with 10 samples.

Results

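The genes described here build, acidify and equip the lysosome: 45 genes of the 19178 in the count table. They comprise every gene in the table whose mouse symbol starts with Atp6v or Atp6ap, 19 in all, and 26 named genes, of which 14 encode lysosomal hydrolases and 12 encode lysosomal membrane glycoproteins, cholesterol exporters, a hydrolase activator, a thiol reductase, a calcium channel and the transcription factors Tfeb and Tfe3. Their expression was compared between dendritic cells of Ptbp1-deficient mice (5 libraries) and of wild-type (WT) mice (5 libraries), all aged 8 to 10 weeks. Dendritic cells take up, process and present antigen to T cells, and Ptbp1 encodes an RNA-binding splicing regulator, polypyrimidine tract-binding protein 1. The labels do not give the tissue of origin, the sex or strain of the mice, which part of Ptbp1 was lost, or what drove the loss. Nor do they say whether the 5 libraries of a group are 5 mice, and p-values here can speak only of the spread among the libraries themselves.

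The vacuolar ATPase (V-ATPase) pumps protons into lysosomes and endosomes. Its cytosolic V1 sector hydrolyses ATP and its membrane V0 sector carries the protons, and the acid they deliver lets hydrolases digest proteins, lipids and glycans. In dendritic cells this compartment also prepares antigen for presentation on MHC class II, and its acidity affects how much antigen survives digestion. Tfeb and Tfe3 are transcription factors that bind the CLEAR element, an E-box variant found in front of many lysosomal genes, and they are held in the cytosol while mTORC1 is active.

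Gene rows held 61759378 to 92697815 counts per Ptbp1-deficient library and 50516163 to 66153758 counts per WT library. Ptbp1 itself stood at 73.2 to 75.7 CPM (read counts scaled to library size with TMM) in the Ptbp1-deficient libraries and at 259 to 312 CPM in the WT libraries. The dendritic cell markers listed for this check were all measured, with a summed level of 33821 to 36352 CPM in Ptbp1-deficient libraries and 28593 to 35008 CPM in WT libraries. Of these 10 markers 3 were called higher and 1 lower. Most of the sum came from Cd74, H2-Ab1 and H2-Aa (means of 13828, 8999 and 7049 CPM in Ptbp1-deficient cells), genes of the MHC class II pathway. The sum therefore does not measure the share of dendritic cells. The libraries also carried macrophage transcripts, to unequal extents. The summed level of 18 of 20 listed macrophage markers, those with a row, was 440, 422, 1054, 1212 and 1036 CPM in Ptbp1-deficient libraries 1 to 5 and 2940, 1514, 1466, 1447 and 4397 CPM in WT libraries 1 to 5. Of these markers 12 were called lower in Ptbp1-deficient libraries and 0 higher. WT libraries 1 and 5 held the most, and Ptbp1-deficient libraries 1 and 2 the least. The macrophage score used as a covariate in 1 alternative is the mean log2 CPM of these markers. It was 3.058 to 5.278 in Ptbp1-deficient libraries and 5.453 to 7.174 in WT libraries, without overlap. That fit therefore cannot tell the score and genotype well apart, and a call lost or gained in it does not show which of them bears on a gene. Of 10 markers of the cross-presenting cDC1 subset 9 were called higher, with a summed level of 6750 to 8241 CPM in Ptbp1-deficient libraries and 3673 to 4933 CPM in WT libraries. Of 10 cDC2 markers 9, of 10 B cell markers 8, of 8 plasmacytoid markers 5 and of 10 monocyte markers 5 were called lower, and of 10 natural killer cell markers 6 were called higher. All these marker counts are to be read against all 18248 genes tested, of which 21.9% were called higher and 23.1% lower. The part of these cell types in the results that follow was not tested, and only the alternatives on macrophages bear on any of it. In bulk RNA such as this, fewer cells of a type and less RNA per cell cannot be told apart.

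Lysosomal genes moved in both directions. The 45 genes correspond to 46 identifiers, all of which passed the filter on low counts, and edgeR's quasi-likelihood test called 17 higher and 11 lower in Ptbp1-deficient cells at a Benjamini-Hochberg adjusted p under 0.05 over all genes tested. That is 60.9% of them, while 45.0% of all 18248 genes tested were called, 21.9% higher and 23.1% lower. Most of these genes are abundant, and abundant genes were called more often. Among genes with a mean of at least 10 CPM, 26 of 41 member identifiers (63.4%) and 57.6% of all 9117 such genes were called (32.5% higher and 25.1% lower), so the share called is near the background. The groups did not overlap in CPM for 14 members that were higher and 9 that were lower, of 46, against 33.4% of all genes tested in either direction. That share was not worked out for genes with at least 10 CPM, so these counts do not show an excess among the members. The median log2 fold change (Ptbp1-deficient over WT) was 0.05 over the members and -0.03 over all genes tested.

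Of the 19 V-ATPase genes, 8 rose, 4 fell and 7 were not called (median log2 fold change 0.14). Without the pseudogene Atp6v0c-ps2 and Atp6v1fnb, a neighbouring gene that is no subunit, the same calls fell among 17 genes (median 0.25). Of the 14 hydrolase genes, 7 rose, 3 fell and 4 were not called (median 0.09). Both counts are to be read against the 57.6% of all genes with at least 10 CPM that were called, 32.5% higher and 25.1% lower. The hydrolases ranged from a log2 fold change of -0.60 for Gla, which was not called, to 1.01 for Ppt1. The largest V-ATPase change that was called was 0.71, for Atp6v1g2. Only 2 member identifiers were called with more than a 2-fold difference, Ppt1 and 1 of the 2 identifiers of Ifi30, and the second of these differs between counts and FPKM, as described with that gene.

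The RefSeq promoter table of GRCm38.p6 (250 bases before to 50 bases after each annotated start) held 44 promoters for 37 of the 45 genes. The palindrome TCACGTGA, the core of the CLEAR element, was searched on both strands, which a palindrome makes the same search. It occurred in 6 of the 44 promoters (13.6%) and in 320 of all 32851 promoters (0.974%). The longer form with a G before it and a C after it was in 0 of the 44 and in 0.326% of all promoters. The plain E-box CACGTG, which every TCACGTGA also contains, was in 10 of the 44 (22.7%) and in 7.15% of all promoters. The 6 genes are the V1 gene Atp6v1a, the V0 genes Atp6v0d1 and Atp6v0e, the hydrolase gene Gla, the channel gene Mcoln1 and Ifi30. The windows of 4 of them follow in lower case with TCACGTGA in capitals, 5' to 3' on the gene's strand, because they include both V-ATPase genes of the 6 that rose and 2 genes that were not called.
Atp6v1a: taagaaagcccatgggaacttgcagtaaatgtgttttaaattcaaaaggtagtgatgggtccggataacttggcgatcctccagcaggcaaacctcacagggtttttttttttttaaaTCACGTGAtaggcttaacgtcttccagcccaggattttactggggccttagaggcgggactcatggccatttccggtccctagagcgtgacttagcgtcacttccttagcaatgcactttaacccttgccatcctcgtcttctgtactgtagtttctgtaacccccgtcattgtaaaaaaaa
Atp6v0d1: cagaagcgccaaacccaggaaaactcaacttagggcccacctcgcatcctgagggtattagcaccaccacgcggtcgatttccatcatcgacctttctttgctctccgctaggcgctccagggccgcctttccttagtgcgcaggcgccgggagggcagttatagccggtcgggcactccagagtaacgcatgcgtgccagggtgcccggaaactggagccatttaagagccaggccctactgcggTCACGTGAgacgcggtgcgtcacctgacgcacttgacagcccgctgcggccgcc
Mcoln1: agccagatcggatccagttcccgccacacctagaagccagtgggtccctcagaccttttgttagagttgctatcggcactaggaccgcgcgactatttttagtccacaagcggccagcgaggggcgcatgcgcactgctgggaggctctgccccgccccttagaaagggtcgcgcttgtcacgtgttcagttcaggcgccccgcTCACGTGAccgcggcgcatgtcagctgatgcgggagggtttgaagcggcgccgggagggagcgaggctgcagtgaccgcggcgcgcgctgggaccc
Gla: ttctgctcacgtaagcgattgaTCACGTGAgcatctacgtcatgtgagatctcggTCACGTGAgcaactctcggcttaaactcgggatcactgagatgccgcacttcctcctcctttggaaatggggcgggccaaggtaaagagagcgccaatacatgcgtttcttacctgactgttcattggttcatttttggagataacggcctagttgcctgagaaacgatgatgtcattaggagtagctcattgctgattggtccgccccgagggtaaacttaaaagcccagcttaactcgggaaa
The Atp6v1a window is chr16:44139210-44139509 on the minus strand and its match begins 132 bases before the start. The Atp6v0d1 window is chr8:105566015-105566314 on the minus strand, with the match 4 bases before the start. The Mcoln1 window is chr8:3500269-3500568 on the plus strand, with the match 46 bases before the start. The Gla window is chrX:134600956-134601255 on the minus strand and holds the palindrome more than once, the farthest copy beginning 228 bases before the start. Of the genes with the palindrome, Atp6v1a and Atp6v0d1 rose, and Mcoln1, Gla and Atp6v0e were not called. Ifi30 has 1 identifier that was called lower in counts and not in FPKM, ENSMUSG00000031838, whose start lies in its window, and 1 that was not called. A match of letters is a description of these windows only.

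By counts, the transcripts of the transcription factors themselves differed little. Tfe3 had 82.5, 77.9, 75.2, 75.4 and 73.5 CPM in Ptbp1-deficient libraries and 86.9, 85.4, 89.9, 82.6 and 90.5 CPM in WT libraries (log2 fold change -0.18, SE 0.043, edgeR adjusted p = 0.0049). All Ptbp1-deficient libraries lay below all WT libraries, the closest pair being 82.5 and 82.6 CPM. Tfeb had 164, 170, 158, 150 and 148 CPM in Ptbp1-deficient libraries and 144, 151, 158, 157 and 143 CPM in WT libraries (log2 fold change 0.07, SE 0.049, edgeR adjusted p = 0.28), with overlapping groups. In deposited FPKM the difference of Tfe3 was larger, at 15.4 ± 0.964 in Ptbp1-deficient cells and 20.3 ± 2.00 in WT cells, without overlap. There limma on log2(FPKM + 1) called Tfe3 lower (log2 fold change -0.37, adjusted p = 0.0014) and did not call Tfeb (-0.04, 0.55). Transcript levels do not show where either protein sits in the cell.

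Of the 10 V1 genes 6 rose and 0 fell (median log2 fold change 0.26), where 32.5% of all genes with at least 10 CPM rose and 57.6% were called in either direction. These 10 include Atp6v1fnb, which is no subunit. The summed level of the V1 genes was 607, 592, 678, 694 and 641 CPM in Ptbp1-deficient libraries and 507, 544, 571, 562 and 570 CPM in WT libraries, without overlap. Atp6v1d, a subunit of the central rotor, had 102, 101, 114, 112 and 107 CPM in Ptbp1-deficient libraries and 72.3, 78.3, 84.5, 79.8 and 81.1 CPM in WT libraries (log2 fold change 0.44, SE 0.052, edgeR adjusted p = 4.3e-05). Every Ptbp1-deficient library exceeded every WT library. Atp6v1a, the catalytic subunit that binds and hydrolyses ATP, had 83.2, 79.6, 90.3, 92.7 and 89.5 CPM in Ptbp1-deficient libraries and 73.5, 70.9, 73.3, 74.0 and 73.7 CPM in WT libraries (log2 fold change 0.25, SE 0.045, edgeR adjusted p = 8.0e-04). Again the groups did not overlap, and WT libraries were close to each other.

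The G subunit, part of the peripheral stalks that hold V1 to V0, is encoded by more than 1 gene in these data. Atp6v1g2, best known from neurons, had 7.97, 8.34, 9.33, 10.5 and 9.07 CPM in Ptbp1-deficient libraries and 5.46, 6.12, 4.95, 5.26 and 5.86 CPM in WT libraries (log2 fold change 0.71, SE 0.096, edgeR adjusted p = 1.1e-04). The groups did not overlap, but the gene stayed a minor form: per length, it made up 5.29% to 6.45% of the Atp6v1g1 plus Atp6v1g2 FPKM in Ptbp1-deficient libraries and 3.22% to 5.95% in WT libraries, and these shares overlap. Atp6v1g1, the widely expressed form, averaged 96.4 ± 9.20 CPM in Ptbp1-deficient cells and 81.1 ± 7.56 CPM in WT cells (SD, n = 5 each; log2 fold change 0.25, edgeR adjusted p = 0.021), with overlapping groups. Its call was lost in 6 of 25 alternatives, among them those without WT libraries 1 and 5 (edgeR adjusted p = 0.076), without Ptbp1-deficient library 3 (0.055) or 4 (0.053), and after adjustment for reads that fell outside genes (0.073).

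Atp6v1h, a regulatory subunit, averaged 69.6 ± 4.50 CPM in Ptbp1-deficient cells and 55.8 ± 4.33 CPM in WT cells (log2 fold change 0.32, edgeR adjusted p = 0.0014). Atp6v1f, a rotor subunit, averaged 109 ± 7.68 CPM in Ptbp1-deficient cells and 88.7 ± 8.57 CPM in WT cells (log2 fold change 0.29, edgeR adjusted p = 0.0055). Both were higher in every Ptbp1-deficient library than in any WT library. The partner of Atp6v1a in the catalytic ring, Atp6v1b2, was not called, at 104 ± 5.98 CPM in Ptbp1-deficient cells and 108 ± 6.53 CPM in WT cells (log2 fold change -0.05, edgeR adjusted p = 0.48). The stalk subunit gene Atp6v1e1 was not called either, at 58.9 ± 5.95 CPM in Ptbp1-deficient cells and 58.3 ± 3.99 CPM in WT cells (log2 fold change 0.02). Atp6v1fnb, a neighbour of Atp6v1f that shares its name but is not a subunit, had 2 to 23 counts per library.

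Atp6v1c1, the C subunit that joins when the sectors assemble, is measured poorly by the counts. Its row held only 45 to 115 counts per library, 1.11 ± 0.133 CPM in Ptbp1-deficient cells and 0.923 ± 0.0375 CPM in WT cells (edgeR adjusted p = 0.16). The deposited FPKM values of the same identifier were 13.7 ± 0.939 in Ptbp1-deficient cells and 10.5 ± 0.972 in WT cells, and limma on log2(FPKM + 1) called it higher (log2 fold change 0.36, adjusted p = 0.0014). A further Atp6v1c1 identifier in the FPKM table, which has no row in the count table used here, stood at 13.2 ± 0.952 FPKM in Ptbp1-deficient cells and 10.1 ± 1.01 FPKM in WT cells. The count row and the FPKM rows therefore differ in the call, and the counts are low for a gene at this FPKM: Atp6v1a, at 19.9 ± 0.716 FPKM in Ptbp1-deficient cells, had 3657 to 8131 counts per library.

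**Figure D1:**
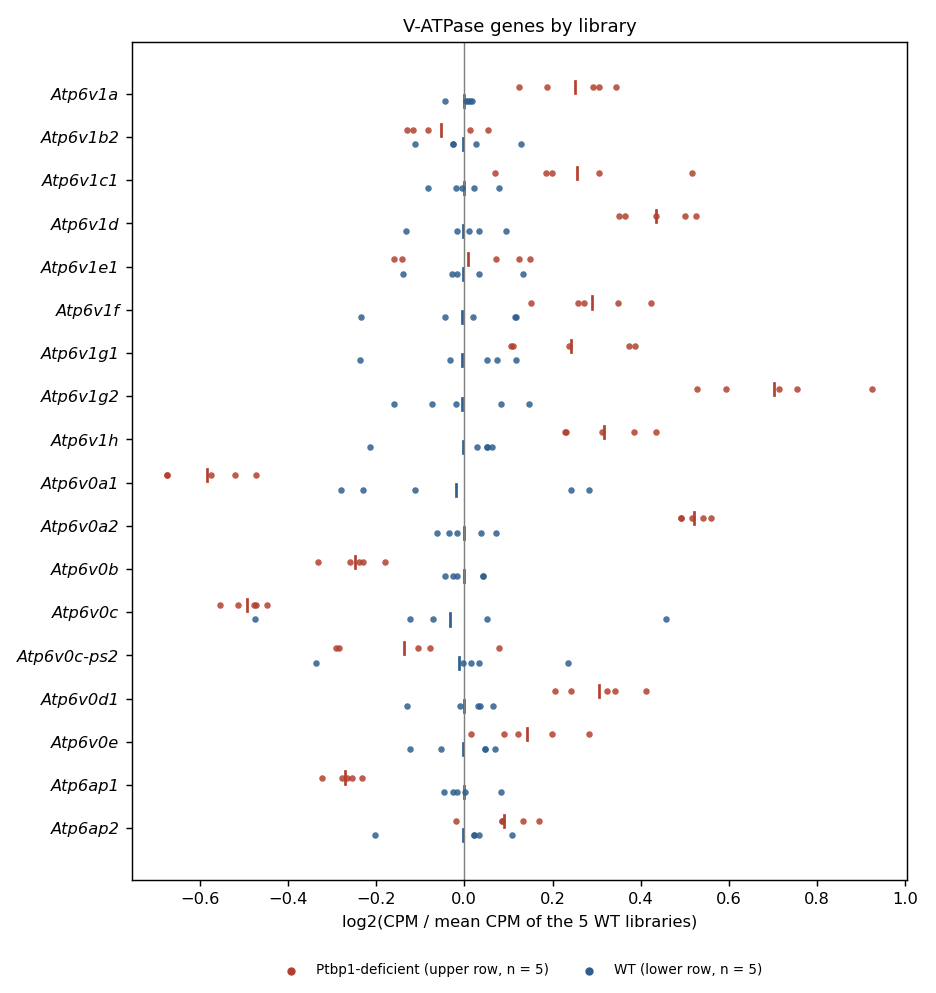
V-ATPase genes by library, with V1 genes at the top, V0 genes below them and the accessory genes last. Each point is 1 library, as log2 of its CPM over the mean CPM of the 5 WT libraries, with Ptbp1-deficient libraries in the upper line of each gene and WT libraries in the lower line; short bars are means of the points. The red points of Atp6v1d, Atp6v1g2, Atp6v0a2 and Atp6v0d1 lie right of all WT points, those of Atp6v0a1, Atp6v0b and Atp6ap1 lie left of them, and Atp6v0c overlaps through 1 low WT library. Atp6v1fnb, with 2 to 23 counts per library, is left out.

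The V0 sector split. Of its 7 genes 2 rose, 3 fell and 2 were not called, where 32.5% of all genes with at least 10 CPM rose and 25.1% fell. These 7 include the pseudogene Atp6v0c-ps2, which was not called, and leave out the a-subunit gene Tcirg1, described below. The summed level of these 7, without Tcirg1, overlapped, at 719 to 769 CPM in Ptbp1-deficient libraries and 667 to 767 CPM in WT libraries. The large a subunit of V0 steers the pump to particular membranes, and its genes moved in opposite directions. Atp6v0a2, the form known from the Golgi and endosomes, had 230, 226, 226, 237 and 234 CPM in Ptbp1-deficient libraries and 157, 165, 159, 169 and 154 CPM in WT libraries (log2 fold change 0.52, SE 0.037, edgeR adjusted p = 1.2e-06). The lowest Ptbp1-deficient library was far above the highest WT library, and the spread within each group was small. The gene (ENSMUSG00000038023, protein coding) lies on chromosome 5, 124628576 to 124724455 (GRCm38, plus strand), and Atp6v0a1 (ENSMUSG00000019302) on chromosome 11, 101009452 to 101063719 on the plus strand. Atp6v0a1, known from neurons and from lysosomes of other cells, had 34.8, 38.7, 37.3, 40.0 and 34.8 CPM in Ptbp1-deficient libraries and 65.6, 47.3, 45.7, 51.4 and 67.5 CPM in WT libraries (log2 fold change -0.58, SE 0.11, edgeR adjusted p = 0.0011). The groups did not overlap, and the 2 highest WT values came from libraries 1 and 5, which also held the most macrophage transcripts. Without them the log2 fold change was -0.38 (edgeR adjusted p = 4.6e-04). With the macrophage score as a covariate it was -0.37 and was not called (edgeR adjusted p = 0.052).

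The a3 subunit is encoded by Tcirg1, whose symbol does not start with Atp6v. Per length it was the main form in both groups, at 143 ± 9.85 FPKM in Ptbp1-deficient cells and 143 ± 10.1 FPKM in WT cells, and its counts were not called (473 ± 30.2 CPM in Ptbp1-deficient cells and 440 ± 19.1 CPM in WT cells, log2 fold change 0.11, edgeR adjusted p = 0.12). Of the summed FPKM of these a-subunit genes, Tcirg1 held 76.8% ± 0.946 in Ptbp1-deficient cells and 79.2% ± 1.05 in WT cells. Atp6v0a2 held 19.3% ± 0.928 in Ptbp1-deficient cells and 15.0% ± 0.772 in WT cells. Atp6v0a1 held 3.94% ± 0.292 in Ptbp1-deficient cells and 5.85% ± 1.11 in WT cells. The share of Atp6v0a2 was larger, and that of Atp6v0a1 smaller, in every Ptbp1-deficient library than in any WT library. Within the pair of Atp6v0a1 and Atp6v0a2, the share of Atp6v0a1 was 15.4% to 18.7% in Ptbp1-deficient libraries and 24.0% to 33.1% in WT libraries, with the highest WT shares in libraries 1 and 5. Of the exonic bases of Atp6v0a2, 9.86% lie opposite a gene on the other strand, and no source used here says whether reads of the 2 strands were told apart.

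**Figure D2:**
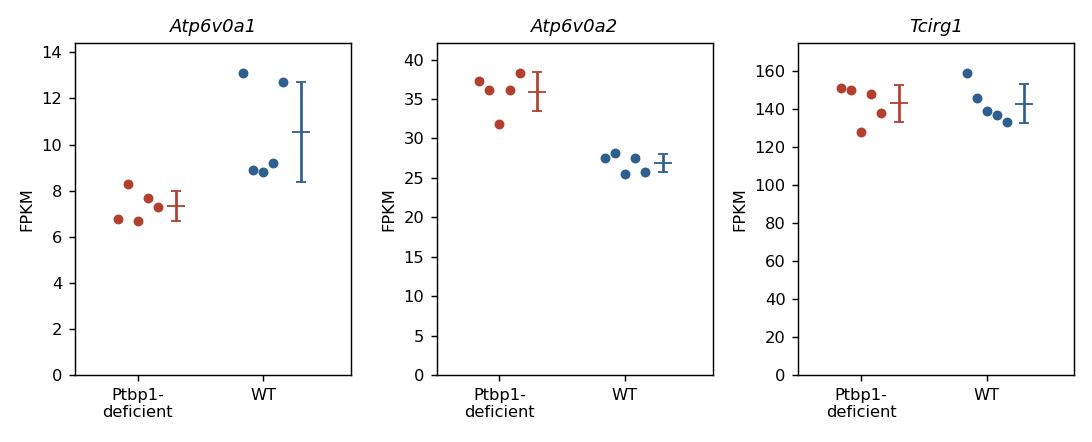
FPKM of the 3 measured genes for the V0 a subunit, by library (points, libraries 1 to 5 from left to right within each group) with the mean and SD (bar, n = 5). Atp6v0a1 is lower and Atp6v0a2 higher in all Ptbp1-deficient libraries than in any WT library, and Tcirg1, the most abundant of them, overlaps.

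The small V0 subunits also differed in direction. Atp6v0d1, the subunit that couples the rotor to the membrane ring, had 91.0, 93.3, 105, 100 and 98.7 CPM in Ptbp1-deficient libraries and 72.1, 80.9, 82.5, 80.7 and 78.4 CPM in WT libraries (log2 fold change 0.31, SE 0.050, edgeR adjusted p = 4.4e-04). The groups did not overlap. Atp6v0b, which encodes the c'' subunit of the proton-carrying ring, had 150, 144, 142, 145 and 135 CPM in Ptbp1-deficient libraries and 165, 167, 175, 168 and 175 CPM in WT libraries (log2 fold change -0.25, SE 0.038, edgeR adjusted p = 2.7e-04). Here every Ptbp1-deficient library was below every WT library, and 11.8% of the exonic bases lie opposite another gene. Atp6v0c, which encodes the main c subunit of the ring, had 80.9, 83.2, 85.5, 85.3 and 87.0 CPM in Ptbp1-deficient libraries and 85.4, 123, 109, 113 and 163 CPM in WT libraries (log2 fold change -0.49, SE 0.13, edgeR adjusted p = 0.0089).

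The Ptbp1-deficient libraries agree closely for Atp6v0c, while WT library 1 lies within their range and WT library 5 far above it. Per length the gene barely differed, at 98.8 ± 17.8 FPKM in Ptbp1-deficient cells and 106 ± 13.9 FPKM in WT cells, and limma on log2(FPKM + 1) did not call it (log2 fold change -0.11, adjusted p = 0.48). Ptbp1-deficient library 1 stood at 129 FPKM there, and the other libraries of its group at 82.7 to 94.9 FPKM. It has processed pseudogene copies that can take its reads. The copy Atp6v0c-ps2 had 2.18 ± 0.240 CPM in Ptbp1-deficient cells and 2.39 ± 0.327 CPM in WT cells and was not called. In deposited FPKM the copy was not minor, at 40.6 ± 3.52 in Ptbp1-deficient cells and 47.0 ± 5.04 in WT cells. Atp6v0e, the small e subunit, averaged 144 ± 10.6 CPM in Ptbp1-deficient cells and 131 ± 7.19 CPM in WT cells and missed the threshold (log2 fold change 0.14, edgeR adjusted p = 0.059), passing it in 5 of 25 alternatives (0.017 to 0.048): DESeq2, both other filters on low counts, and without Ptbp1-deficient library 2 or libraries 1 and 2.

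The accessory proteins help assemble and target the pump. Atp6ap1, which acts in assembly of V0, had 129, 127, 131, 128 and 123 CPM in Ptbp1-deficient libraries and 154, 151, 149, 152 and 163 CPM in WT libraries (log2 fold change -0.27, SE 0.036, edgeR adjusted p = 1.1e-04). The groups stood clear of each other. Atp6ap2, the prorenin receptor, had 116, 108, 120, 123 and 116 CPM in Ptbp1-deficient libraries and 95.0, 111, 111, 112 and 118 CPM in WT libraries (log2 fold change 0.10, SE 0.058, edgeR adjusted p = 0.21). Those groups overlapped. A further 9 annotated symbols of the family have no row in the count table used here, namely Atp6ap1l, Atp6v0a4, Atp6v0c-ps1, Atp6v0d2, Atp6v0e2, Atp6v1b1, Atp6v1c2, Atp6v1e2 and Atp6v1g3, and they were not analysed here.

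Among the hydrolases, Ppt1 stood apart in size. Ppt1, palmitoyl-protein thioesterase, which removes fatty acids from proteins, had 1414, 1328, 1792, 1909 and 1776 CPM in Ptbp1-deficient libraries and 658, 917, 824, 908 and 766 CPM in WT libraries (2.02-fold, log2 fold change 1.01, SE 0.12, edgeR adjusted p = 4.0e-05). The lowest Ptbp1-deficient library was well above the highest WT library, and libraries 3 to 5 were the highest of their group. The gene (ENSMUSG00000028657) is protein coding and lies on chromosome 4, 122836242 to 122859175 (GRCm38, plus strand). Its log2 fold change ranged from 0.90 to 1.16 over all alternatives run. Asah1, acid ceramidase, had 271, 266, 287, 307 and 289 CPM in Ptbp1-deficient libraries and 225, 233, 231, 229 and 239 CPM in WT libraries (log2 fold change 0.29, SE 0.045, edgeR adjusted p = 2.5e-04). Neu1, the sialidase that trims sialic acid from glycans, had 35.9, 35.1, 33.3, 34.7 and 33.5 CPM in Ptbp1-deficient libraries and 49.0, 42.6, 43.3, 45.0 and 55.9 CPM in WT libraries (log2 fold change -0.45, SE 0.070, edgeR adjusted p = 3.0e-04). Neither gene overlapped between groups, and for Neu1 the WT libraries 1 and 5 were again the highest.

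The other hydrolases that rose act on glycans or lipids. Fuca1, the fucosidase, averaged 308 ± 26.7 CPM in Ptbp1-deficient cells and 235 ± 13.4 CPM in WT cells (log2 fold change 0.39, edgeR adjusted p = 4.1e-04). Gusb, beta-glucuronidase, averaged 346 ± 20.5 CPM in Ptbp1-deficient cells and 279 ± 36.9 CPM in WT cells (log2 fold change 0.31, edgeR adjusted p = 0.012). Arsb, arylsulfatase B, averaged 81.4 ± 8.54 CPM in Ptbp1-deficient cells and 61.9 ± 7.97 CPM in WT cells (log2 fold change 0.40, edgeR adjusted p = 0.0052). Of the exonic bases of Arsb, 39.9% lie opposite genes on the other strand, and reads of those genes cannot be told apart from its own if strand was not used. Lipa, the acid lipase that frees cholesterol from its esters, averaged 222 ± 26.8 CPM in Ptbp1-deficient cells and 187 ± 6.88 CPM in WT cells (log2 fold change 0.25, edgeR adjusted p = 0.017), with Ptbp1-deficient libraries 1 and 2 inside or near the WT range. Man2b1, the lysosomal alpha-mannosidase, averaged 1266 ± 48.6 CPM in Ptbp1-deficient cells and 1166 ± 24.9 CPM in WT cells (log2 fold change 0.12, edgeR adjusted p = 0.042). The Man2b1 call was lost in 15 of 25 alternatives and that of Lipa in 6, among them the deposited FPKM (log2 fold change 0.16, limma adjusted p = 0.12) and the fits without Ptbp1-deficient library 4 (edgeR adjusted p = 0.052) or 5 (0.05).

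Besides Neu1, a lipid and a protein hydrolase fell. Smpd1, acid sphingomyelinase, averaged 10.5 ± 0.554 CPM in Ptbp1-deficient cells and 13.3 ± 1.29 CPM in WT cells (log2 fold change -0.35, edgeR adjusted p = 0.0033). Tpp1, tripeptidyl peptidase, averaged 58.8 ± 1.56 CPM in Ptbp1-deficient cells and 75.8 ± 10.3 CPM in WT cells (log2 fold change -0.37, edgeR adjusted p = 0.0024). Neither overlapped. With the macrophage score as a covariate Tpp1 was not called (log2 fold change -0.18, edgeR adjusted p = 0.12).

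The 4 hydrolase genes that were not called include the enzymes best known from glycolipid and glycogen storage. Hexa, the alpha chain of beta-hexosaminidase, averaged 176 ± 9.68 CPM in Ptbp1-deficient cells and 188 ± 11.5 CPM in WT cells, and was called lower in 4 of 25 alternatives, upper-quartile normalization (adjusted p = 0.030) and the deposited FPKM under 3 settings (0.027 to 0.033). Gaa, acid alpha-glucosidase, averaged 71.2 ± 1.94 CPM in Ptbp1-deficient cells and 72.3 ± 5.52 CPM in WT cells. Glb1, beta-galactosidase, averaged 30.0 ± 0.961 CPM in Ptbp1-deficient cells and 29.0 ± 3.01 CPM in WT cells, and was called higher without WT library 5 (log2 fold change 0.12, edgeR adjusted p = 0.038). The remaining one, Gla, depends on which WT libraries are kept. Gla, alpha-galactosidase A, had 18.4, 17.3, 18.3, 15.3 and 20.7 CPM in Ptbp1-deficient libraries and 13.3, 23.7, 21.0, 20.7 and 58.2 CPM in WT libraries (log2 fold change -0.60, SE 0.32, edgeR adjusted p = 0.14). Without WT library 5, where it was highest, its log2 fold change was -0.12 (edgeR adjusted p = 0.50), and without WT library 1, where it was lowest, it was -0.77 (0.049). Without both of these libraries Gla was called lower (log2 fold change -0.27, edgeR adjusted p = 0.028).

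**Figure D3:**
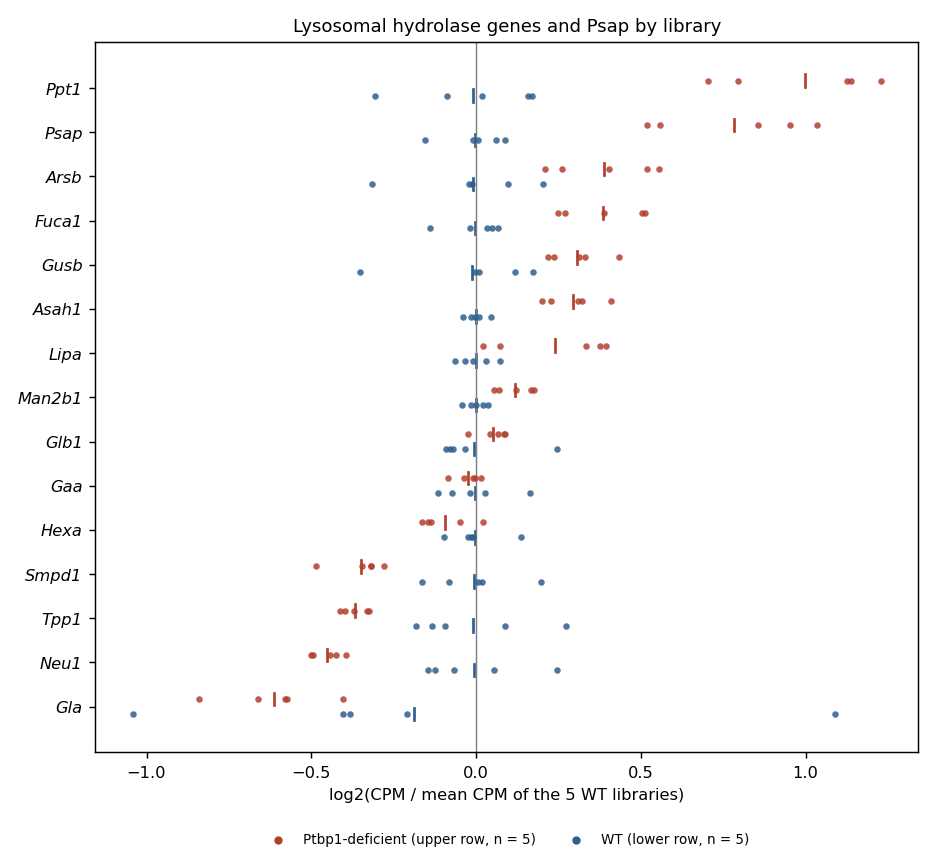
Lysosomal hydrolase genes and the activator gene Psap by library, ordered by fold change. Each point is 1 library, as log2 of its CPM over the mean CPM of the 5 WT libraries, with Ptbp1-deficient libraries in the upper line of each gene and WT libraries in the lower line; short bars are means of the points. Ppt1 and Psap lie farthest right, with Ptbp1-deficient libraries clear of WT; Smpd1, Tpp1 and Neu1 lie left of WT, and Gla spans the widest WT range, 13.3 to 58.2 CPM.

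Summed per library, the hydrolase genes differed more than the V-ATPase genes. The 14 hydrolase genes together had 4298, 4158, 4719, 4933 and 4640 CPM in Ptbp1-deficient libraries and 3176, 3544, 3382, 3532 and 3508 CPM in WT libraries. The 19 V-ATPase genes had 1579, 1546, 1677, 1715 and 1613 CPM in Ptbp1-deficient libraries and 1424, 1525, 1541, 1546 and 1616 CPM in WT libraries, so that their sums overlapped. Tcirg1, the main a-subunit gene, is not among these 19. It had 485, 502, 424, 488 and 467 CPM in Ptbp1-deficient libraries and 446, 448, 462, 430 and 412 CPM in WT libraries. The overlap therefore holds for the 19 genes and not for the whole pump. The ratio of the V-ATPase sum to the hydrolase sum was 0.348 to 0.372 in Ptbp1-deficient libraries and 0.430 to 0.461 in WT libraries. The ratio was lower in every Ptbp1-deficient library. Much of the hydrolase sum lies in 2 abundant genes, Ppt1 and Man2b1. Of these, Ppt1 differed far more, at 1644 ± 256 CPM in Ptbp1-deficient cells and 815 ± 108 CPM in WT cells. Man2b1 stood at 1266 ± 48.6 CPM in Ptbp1-deficient cells and 1166 ± 24.9 CPM in WT cells. No sum was made without Ppt1 alone. Without both genes the hydrolase sums overlapped, at 1522 to 1757 CPM in Ptbp1-deficient libraries and 1335 to 1547 CPM in WT libraries. That overlap came only from Ptbp1-deficient library 2 and WT library 5. The ratio was then 0.976 to 1.02 in Ptbp1-deficient libraries and 1.04 to 1.08 in WT libraries. In deposited FPKM, which counts per length, the V-ATPase sum was 938 to 1047 in Ptbp1-deficient libraries and 963 to 1019 in WT libraries, and the hydrolase sum 1455 to 1757 in Ptbp1-deficient libraries and 1153 to 1251 in WT libraries. Without Ppt1 and Man2b1 the hydrolase sums overlapped in FPKM too, at 546 to 615 in Ptbp1-deficient libraries and 514 to 569 in WT libraries. These sums are a description with no test. Gene by gene, the median log2 fold change was 0.09 for the hydrolase genes and 0.14 for the V-ATPase genes.

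**Figure D4:**
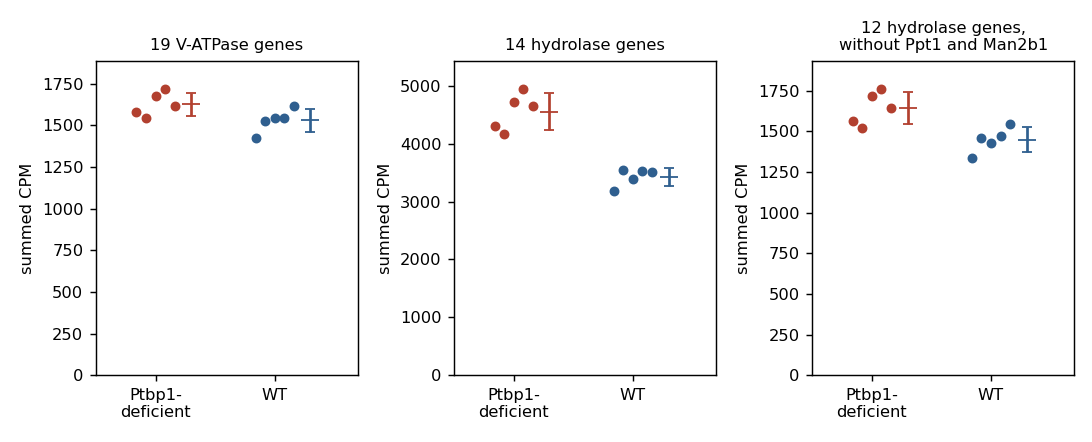
Summed CPM of the V-ATPase genes without Tcirg1 (left), of all 14 hydrolase genes (middle) and of the 12 hydrolase genes other than Ppt1 and Man2b1 (right). Points are libraries 1 to 5 from left to right within each group, and bars the mean and SD (n = 5). The hydrolase sum is at 4158 to 4933 CPM in Ptbp1-deficient libraries and 3176 to 3544 CPM in WT libraries, and the right panel shows how much nearer the groups lie without those 2 genes.

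The most abundant member, by CPM and per length, was Psap, the precursor of the saposins that present sphingolipids to their hydrolases. It had 7299, 7110, 9605, 10150 and 8979 CPM in Ptbp1-deficient libraries and 4451, 4977, 4927, 5271 and 5177 CPM in WT libraries (1.74-fold, log2 fold change 0.80, SE 0.10, edgeR adjusted p = 8.7e-05). All Ptbp1-deficient libraries were above all WT libraries, with libraries 1 and 2 the lowest of their group. Psap (ENSMUSG00000004207, protein coding) lies on chromosome 10, 60277627 to 60302597 (GRCm38, plus strand). Per length Psap stood at 2955 ± 441 FPKM in Ptbp1-deficient cells and 1807 ± 69.5 FPKM in WT cells.

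Ifi30, the thiol reductase that opens disulfide bonds of antigens in the MHC class II pathway, has 2 identifiers in the count table. ENSMUSG00000110777, named Ifi30 only in the deposited FPKM table, had 156, 157, 155, 139 and 143 CPM in Ptbp1-deficient libraries and 145, 146, 148, 150 and 135 CPM in WT libraries (log2 fold change 0.05, SE 0.047, edgeR adjusted p = 0.41). ENSMUSG00000031838, annotated in GENCODE as a processed transcript, had 5.18, 5.62, 4.83, 3.93 and 3.30 CPM in Ptbp1-deficient libraries and 5.39, 15.3, 38.0, 12.1 and 5.08 CPM in WT libraries (log2 fold change -1.73, SE 0.48, edgeR adjusted p = 0.012). The groups of the second overlap, and its WT values are spread widely. In deposited FPKM the same identifier stood at 200 ± 5.58 in Ptbp1-deficient cells and 211 ± 12.5 in WT cells, where limma on log2(FPKM + 1) did not call it (log2 fold change -0.08, adjusted p = 0.23). The call of ENSMUSG00000031838 thus differs between its counts and its FPKM, and the identifier that holds most Ifi30 counts was not called in either.

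The cholesterol exporters act in sequence, Npc2 in the lumen and Npc1 in the membrane. Npc2 had 294, 286, 375, 396 and 342 CPM in Ptbp1-deficient libraries and 250, 232, 241, 258 and 306 CPM in WT libraries (log2 fold change 0.40, SE 0.10, edgeR adjusted p = 0.0072). The groups overlapped through WT library 5 and Ptbp1-deficient libraries 1 and 2. Npc1 had 139, 135, 112, 106 and 113 CPM in Ptbp1-deficient libraries and 126, 130, 139, 128 and 134 CPM in WT libraries (log2 fold change -0.12, SE 0.075, edgeR adjusted p = 0.21). Libraries 1 and 2 of the Ptbp1-deficient group were on the WT level and libraries 3 to 5 below it, and without libraries 1 and 2 Npc1 was called lower (log2 fold change -0.26, edgeR adjusted p = 0.0015). Mcoln1, the lysosomal calcium channel TRPML1, had 79.1, 79.8, 71.7, 76.6 and 80.5 CPM in Ptbp1-deficient libraries and 86.8, 75.2, 75.3, 73.6 and 71.9 CPM in WT libraries (log2 fold change 0.02, SE 0.055, edgeR adjusted p = 0.81), with overlapping groups.

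Of the 5 membrane glycoprotein genes, 2 fell and 0 rose, where 25.1% of all genes with at least 10 CPM fell and 32.5% rose. Cd63, a tetraspanin of late endosomes, had 25.4, 21.0, 27.9, 36.6 and 26.2 CPM in Ptbp1-deficient libraries and 48.5, 37.2, 38.8, 40.2 and 45.9 CPM in WT libraries (log2 fold change -0.62, SE 0.13, edgeR adjusted p = 0.0022). Cd68, a glycoprotein abundant in macrophages, had 158, 160, 189, 171 and 180 CPM in Ptbp1-deficient libraries and 193, 209, 202, 207 and 216 CPM in WT libraries (log2 fold change -0.26, SE 0.055, edgeR adjusted p = 0.0024). Neither gene overlapped between groups. With the macrophage score as a covariate, neither was called (Cd63 log2 fold change -0.29, edgeR adjusted p = 0.080; Cd68 -0.16, 0.079).

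Lamp1, the main glycoprotein of the lysosomal coat, had 146, 147, 190, 198 and 185 CPM in Ptbp1-deficient libraries and 248, 182, 195, 192 and 287 CPM in WT libraries (log2 fold change -0.35, SE 0.13, edgeR adjusted p = 0.052). WT libraries 1 and 5 were the highest and the other WT libraries lay among the Ptbp1-deficient ones. It passed the threshold in 9 of 25 alternatives: DESeq2 (adjusted p = 0.025), upper-quartile normalization (0.032), the deposited FPKM under all 3 settings (0.037 to 0.041), and without Ptbp1-deficient library 4 or WT library 2, 3 or 4 (0.034 to 0.046). Without WT libraries 1 and 5 its log2 fold change was -0.13 (edgeR adjusted p = 0.31). Lamp2, which also serves chaperone-mediated autophagy, averaged 103 ± 9.71 CPM in Ptbp1-deficient cells and 93.5 ± 14.2 CPM in WT cells and was not called (log2 fold change 0.14, edgeR adjusted p = 0.26). Without WT library 5 it was called higher (log2 fold change 0.24, edgeR adjusted p = 0.017). Scarb2, the sorting receptor of beta-glucocerebrosidase, averaged 86.8 ± 6.39 CPM in Ptbp1-deficient cells and 87.2 ± 12.4 CPM in WT cells and was not called (log2 fold change -0.01, edgeR adjusted p = 0.97). With the macrophage score as a covariate it was called higher (log2 fold change 0.25, edgeR adjusted p = 0.015).

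Libraries of 1 group also differed among themselves. In 24 of the 46 identifiers, Ptbp1-deficient libraries 1 and 2 were both below libraries 3 to 5, among them Psap, Ppt1, Npc2, Lamp1, Lamp2, Cd63 and Atp6v1a, and in 8 both were above. In 11 identifiers WT libraries 1 and 5 were both above libraries 2 to 4, among them Lamp1, Lamp2, Scarb2, Cd63, Neu1, Tpp1 and Atp6v0a1. In 10 both were below, among them Ppt1, Gusb, Tfeb, Atp6v0a2 and Atp6v0d1. Psap, Ppt1, Atp6v0a2, Atp6v0d1, Atp6v1a, Atp6v1d and Atp6v1g2 were called higher in the fit that left out WT libraries 1 and 5 and in the fit with the macrophage score. Neither fit took account of the cDC1 markers. Their summed level was 6836, 6750, 7819, 8241 and 7811 CPM in Ptbp1-deficient libraries 1 to 5. In WT libraries 1 to 5 it was 3673, 4897, 4571, 4933 and 4167 CPM. Within each group the lowest sums were thus in Ptbp1-deficient libraries 1 and 2 and in WT libraries 1 and 5, as for Ppt1. How far the cell mixture bears on any member, these included, was not tested beyond the alternatives on macrophages.

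**Figure D5:**
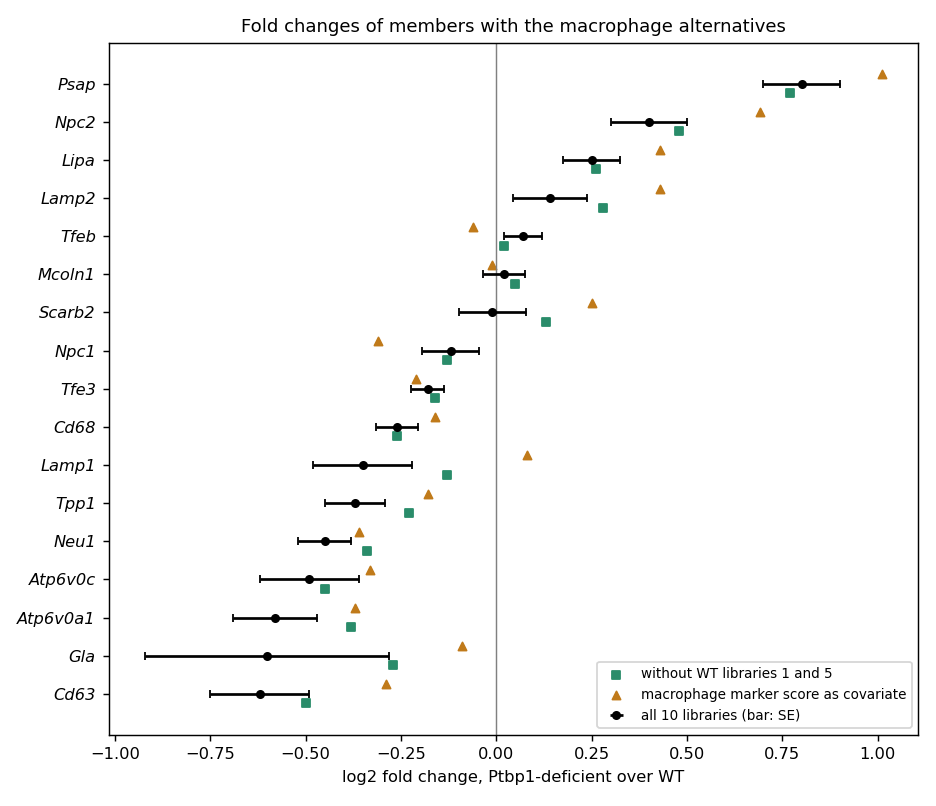
Log2 fold change (Ptbp1-deficient over WT) of 17 members, 11 of them the non-hydrolase, non-V-ATPase members other than Ifi30, in all 10 libraries (black, bar SE), without WT libraries 1 and 5 (squares), and with a macrophage marker covariate (triangles). Psap, Npc2 and Lipa lie right of 0 in each; Lamp1 was at -0.35, -0.13 and 0.08, and Scarb2 at -0.01, 0.13 and 0.25, in that order of fits.

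Other genes of the pathway, from lists written for this comparison, gave the following counts, to be read against the 45.0% of all genes tested, and 57.6% of those with at least 10 CPM, that were called. Of 28 other lysosomal hydrolase and activator genes, 10 rose and 8 fell (median log2 fold change -0.04). Naaa, which hydrolyses N-acylethanolamines and is itself on the cDC1 marker list, averaged 1092 ± 143 CPM in Ptbp1-deficient cells and 543 ± 126 CPM in WT cells (log2 fold change 1.01). Galns rose by 0.52 and Aga fell by 0.33 on the log2 scale. Of 25 other lysosomal membrane genes, 6 rose and 11 fell (median -0.15). Clcn7, the chloride-proton exchanger that works beside the pump, averaged 76.5 ± 2.53 CPM in Ptbp1-deficient cells and 62.6 ± 1.83 CPM in WT cells (log2 fold change 0.29, edgeR adjusted p = 7.7e-05). The sialic acid exporter gene Slc17a5 fell by 0.69 and Tmem106b by 0.51 on the log2 scale. The amino acid transporter gene Slc36a1 went opposite ways in the deposited tables. Its counts gave 41.4 ± 3.73 CPM in Ptbp1-deficient cells and 56.4 ± 2.32 CPM in WT cells (log2 fold change -0.45, edgeR adjusted p = 1.2e-04). Its FPKM was 7.94 ± 1.32 in Ptbp1-deficient cells and 4.56 ± 0.486 in WT cells (log2 fold change 0.68, limma adjusted p = 3.8e-04), and neither measure overlapped between groups, so no direction is given for it.

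Genes that deliver hydrolases to lysosomes were divided, with 5 of 18 higher and 6 lower (median 0.05). The mannose 6-phosphate receptor gene Igf2r had 44.5, 44.2, 50.2, 60.0 and 51.3 CPM in Ptbp1-deficient libraries and 18.0, 21.6, 19.6, 23.8 and 29.7 CPM in WT libraries (log2 fold change 1.15, SE 0.13, edgeR adjusted p = 3.0e-05). Sortilin, a sorting receptor that also carries prosaposin, is encoded by Sort1, which had 107, 107, 85.2, 87.8 and 89.2 CPM in Ptbp1-deficient libraries and 200, 185, 187, 182 and 175 CPM in WT libraries (log2 fold change -0.96, SE 0.072, edgeR adjusted p = 1.8e-06). Igf2r and Sort1 thus differed in opposite directions, each with no overlap between groups. The other mannose 6-phosphate receptor gene, M6pr, was not called, at 539 ± 28.3 CPM in Ptbp1-deficient cells and 561 ± 49.4 CPM in WT cells (log2 fold change -0.06, edgeR adjusted p = 0.48). The tethering gene Vps39 fell by 0.31 and the adaptor gene Gga3 by 0.25 on the log2 scale.

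Among 21 genes that control Tfeb and its relatives, 6 rose and 3 fell (median 0.01). Fnip2, which acts with folliculin on the Rag GTPases, averaged 105 ± 22.0 CPM in Ptbp1-deficient cells and 46.7 ± 2.78 CPM in WT cells (log2 fold change 1.17, edgeR adjusted p = 1.4e-05). The Rag gene Rragd averaged 1.05 ± 0.223 CPM in Ptbp1-deficient cells and 2.81 ± 0.442 CPM in WT cells (log2 fold change -1.41, edgeR adjusted p = 6.4e-05). Lamtor5 rose by 0.39 and Ywhag, a 14-3-3 gene, by 0.27 on the log2 scale. Of 13 genes for partners of the V-ATPase, 3 rose and 3 fell (median 0.04). The assembly factor gene Ccdc115 rose by 0.37 and Wdr7 by 0.27, while Oxr1 fell by 0.40 and Dmxl2, a rabconnectin that aids assembly of the pump, which stood at 1.75 ± 0.600 CPM in Ptbp1-deficient cells and 5.30 ± 2.79 CPM in WT cells, by 1.60 on the log2 scale. Dmxl2 was highest in WT libraries 1 and 5, at 7.63 and 8.96 CPM, as the macrophage markers were.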

How the data were processed

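Poly(A) RNA of mouse dendritic cells was sequenced as paired reads on an Illumina HiSeq, per the labels' protocols. HISAT2, StringTie and DESeq2 are named in the submitters' processing notes, without versions, and so is the human build GRCh38, although the genes carry mouse Ensembl identifiers. Neither the tool that counted reads nor its strand setting is named in the sources used here. The deposited table of counts per gene is unnormalized, with at least 2 counts in every library for each of its 19178 gene rows. Reads outside genes (17.2% to 22.2% of each library's counts), ambiguous reads (1.78% to 1.94%) and reads that were not unique were kept out of library sizes and tests. The FPKM values were deposited by the authors in a table of 11978 rows, where 10 repeated identifiers were summed, and serve for levels per length.

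GENCODE M21 (GRCm38) gave symbols and biotypes for 19035 identifiers, and 101 of the other 143 were named from the deposited FPKM table. edgeR's filterByExpr removed 930 genes. The remaining 18248 genes were normalised by TMM and tested with edgeR (version 4.0.16, R 4.3.3) by quasi-likelihood, with genotype as the only term and with Benjamini-Hochberg adjustment, and the threshold was an adjusted p under 0.05. The procedure was tested on simulated data. CPM values are TMM-normalised, with the SD over 5 libraries. FPKM was compared with limma 3.58.1 on log2 values. The members, lists and alternatives were chosen with earlier results of these data known. Values per library are given for the 3 members of each role with the smallest adjusted p, for V-ATPase genes of a shared subunit that differ over 1.5-fold and for the largest called change in each direction, and other genes of the pathway are named for up to 4 of the smallest adjusted p per list. Of the genes this gave, 1 is not reported here. Per-library values of Atp6v0a1, Atp6v0c, Gla, Igf2r and Sort1, and means of M6pr, were added after their values were seen. The alternatives were other normalizations, filters and tools (DESeq2 1.42.0, limma-voom), the replicate number as a block, a stricter threshold, the deposited FPKM, libraries left out, and covariates for macrophage markers (mean log2 CPM, prior count 2) and for reads outside genes. DESeq2 also brings its own filter and normalization (19111 genes tested), and the FPKM fits change values and test together (11968 genes, or 11363 with a mean of at least 2 FPKM).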

Additional observations from a re-analysis of the deposited data

Results flagged for a closer look

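In 5 of the 92 groups of 5 libraries screened, 1 library lay far from the other 4 by Dixon's test at the 95% level, and chance alone gives about 1 in 20 groups. Gla stood at 58.2 CPM in WT library 5, with the other WT libraries at 13.3 to 23.7 CPM. Glb1 stood at 34.3 CPM in WT library 5, with the others at 27.2 to 28.3 CPM. Mcoln1 stood at 86.8 CPM in WT library 1, with the others at 71.9 to 75.3 CPM. Atp6v1h stood at 48.1 CPM in WT library 1, with the others at 56.9 to 58.3 CPM. Atp6v1a stood at 70.9 CPM in WT library 2, with the others at 73.3 to 74.0 CPM. All 5 are WT values. WT library 5 also held the most B cell markers (1828 CPM, against 351 to 651 CPM in the other WT libraries), neutrophil markers (903 CPM, against 90.2 to 164 CPM) and monocyte markers (2937 CPM, against 800 to 1548 CPM), beside macrophage markers. Most of the monocyte sum was 1 gene, Nr4a1, at 2501 CPM in WT library 5 and 529 to 1360 CPM in the other WT libraries. The part of these cells in the values above was not tested.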

How the results depend on the processing

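Of the 28 called members, 18 kept their call and direction in all 25 alternatives, and 8 of the 18 uncalled members stayed uncalled. Of 1146 values of single genes under an alternative, 1 changed direction with a call: Scarb2, at a log2 fold change of 0.25 with the macrophage score as a covariate. Hydrolase genes called higher numbered 4 at an adjusted p under 0.01, by construction of the stricter threshold. Leaving out each library in turn gave 7 to 9 V-ATPase genes higher and 4 lower, 5 to 8 hydrolase genes higher and 3 to 4 lower, and 14 to 19 members higher and 11 to 12 lower. With the replicate number as a block, 8 V-ATPase genes were higher and 4 lower, 6 hydrolase genes higher and 3 lower, and 16 members higher and 11 lower. Only Man2b1 lost its call there (edgeR adjusted p = 0.081). Libraries with the same number did not deviate together (correlations of -0.0962 to 0.114). The labels give no pairing, and this check cannot exclude one, since other differences within a group could hide it. With the macrophage score as a covariate, Atp6v0a1, Atp6v0c, Gusb, Man2b1, Tpp1, Cd63 and Cd68 were not called, while Lamp2, Npc1, Scarb2 and Atp6v1fnb were. The score did not overlap between the groups, so it and genotype cannot be told well apart in that fit. The cause of these shifts was not tested. Depth limits Atp6v1fnb (2 to 23 counts per library), Atp6v1c1 (45 to 115) and Atp6v0c-ps2 (119 to 197).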
